A study of Mus musculus with 12 samples.

Results

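The Tob and Btg genes are a small family of antiproliferative regulators, here Tob1, Tob2, Btg1, Btg2 and Btg3, and their signal was followed in heart muscle of mdx and control mice. They were found as probe sets annotated to 1 gene that is one of these 5. Of the 5 genes, 4 were measured, by 9 probe sets: 4 of Tob2, 2 of Btg1, 2 of Btg2 and 1 of Tob1. They stand among 12393 genes with a probe set of their own on the array. The single probe set that lists Btg3 also lists another gene, so no value is given for Btg3. The members were selected on measured values: Tob2, which led to its family, was chosen by the far lower signal of its brightest probe set in mdx than in control hearts at 10.5 months. The comparison of mdx with control at that age is therefore described without a p-value for these genes, as are the other comparisons of Tob2 that use the 10.5-month arrays.

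The 12 arrays came from 4 groups of 3: mdx and control hearts at 8 weeks, and mdx and control hearts at 10.5 months. The mdx mouse carries a mutation in Dmd, the dystrophin gene, in every cell, and is a model of Duchenne muscular dystrophy. The labels give no strain, sex or treatment for any group and do not say whether hearts were pooled, so that p-values measure the spread between arrays, which may be partly technical. The titles and source name heart or cardiac muscle, although 1 keyword among the labels is that of eye muscle.

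Proteins of this family share an N-terminal domain that binds Cnot7 and Cnot8, the Caf1-type nucleases of the CCR4-NOT complex, which shorten the poly(A) tails of messenger RNAs. Tob1 and Tob2 also bind poly(A)-binding protein through their longer C-terminal part, while Btg1 and Btg2 bind the arginine methyltransferase Prmt1. When overproduced in cultured cells these proteins slow entry into S phase. Btg2 is a known p53 target and an early response gene, and Btg1 is known for keeping lymphocytes quiescent.

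The 250 bases before the annotated start of each measured gene are shown because the 4 genes of 1 family differed in their values. They are RefSeq sequences of GRCm38.p6, read 5′ to 3′ on the strand of the gene, at chr15:81858327-81858576 (minus) for Tob2, chr11:94211204-94211453 (plus) for Tob1, chr1:134079156-134079405 (minus) for Btg2 and chr10:96616751-96617000 (plus) for Btg1. Capitals mark matches, on either strand, to the motifs searched, which were the E-box CACGTG, the cyclic AMP response element TGACGTCA, the D-box TTATGTAA, TATAAA and CCAAT.
Tob2: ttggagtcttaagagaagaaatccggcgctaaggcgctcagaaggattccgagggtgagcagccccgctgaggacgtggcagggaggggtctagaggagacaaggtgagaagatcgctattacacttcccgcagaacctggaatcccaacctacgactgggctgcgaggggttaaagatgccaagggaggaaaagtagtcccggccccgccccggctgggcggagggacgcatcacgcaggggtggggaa
Tob1: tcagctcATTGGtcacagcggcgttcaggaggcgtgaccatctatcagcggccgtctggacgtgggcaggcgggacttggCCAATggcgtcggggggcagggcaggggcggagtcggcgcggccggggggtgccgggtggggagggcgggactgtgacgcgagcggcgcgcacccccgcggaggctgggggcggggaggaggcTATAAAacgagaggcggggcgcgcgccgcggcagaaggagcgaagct
Btg2: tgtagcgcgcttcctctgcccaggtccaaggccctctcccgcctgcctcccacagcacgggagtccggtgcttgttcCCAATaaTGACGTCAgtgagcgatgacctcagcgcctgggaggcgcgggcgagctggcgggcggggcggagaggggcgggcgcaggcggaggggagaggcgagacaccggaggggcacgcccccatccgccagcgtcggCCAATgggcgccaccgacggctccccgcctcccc
Btg1: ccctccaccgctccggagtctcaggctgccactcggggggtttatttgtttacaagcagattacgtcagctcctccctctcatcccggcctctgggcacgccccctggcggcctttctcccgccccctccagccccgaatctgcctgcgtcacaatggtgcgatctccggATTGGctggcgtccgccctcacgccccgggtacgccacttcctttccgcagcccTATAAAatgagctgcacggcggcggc
The window of Tob2 held none of these motifs. That of Tob1 held TATAAA 47 bases before the start and CCAAT at 243 and 170 bases. That of Btg2 held TGACGTCA at 166 bases and CCAAT at 173 and 34 bases, with no overlap between them. That of Btg1 held TATAAA at 26 bases and CCAAT at 80 bases. Among 27025 genes with such a window, CACGTG was found in 6.05%, TGACGTCA in 1.62%, TTATGTAA in 0.86%, TATAAA in 12.97% and CCAAT in 34.46%. The GC content was 60.4% for Tob2, 73.6% for Tob1, 73.2% for Btg2 and 65.2% for Btg1, against a median of 52.0% (quartiles 44.8% and 60.8%).

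Signals are given after each array was scaled to a trimmed mean of 500, and differences are on the log2(signal + 32) scale with the standard error of the fit. Signals of different probe sets are not comparable as levels. A probe set was tested where its mean scaled signal was at least 100, which all 9 reached, and a change was called below an adjusted p of 0.05 (limma, Benjamini-Hochberg over all 14932 tested probe sets). On the arrays as a whole, Dmd ran from 159 to 286 on the 6 mdx arrays and from 607 to 839 on the 6 control arrays. The 99th percentile of deposited signal was 40770 to 53154 on 4 arrays (mdx replicates 1 and 2 and control replicate 2 at 8 weeks, and mdx replicate 3 at 10.5 months) and 27563 to 32810 on the other 8. All 8 ventricular myocyte markers were well measured, with group means above 100. Their summed signal was 131074 to 401155 in mdx and 141274 to 277343 in control hearts at 8 weeks. At 10.5 months it was 157520 to 201501 in mdx and 136876 to 163714 in control hearts. At 8 weeks the groups overlapped on each of the 8. At 10.5 months 1 was higher in mdx hearts without overlap (Myl2) and 0 lower, where 7.51% and 10.6% of all tested probe sets were. Summed signal of 7 atrial markers was 12891 to 13869 in mdx and 5375 to 7489 in control hearts at 8 weeks, and 12718 to 19346 in mdx and 6086 to 24736 in control hearts at 10.5 months. Nppa gave most of this sum on every array, with 9769 to 11201 in mdx and 3412 to 4983 in control hearts at 8 weeks. At that age 3 of the 7 were higher in mdx hearts without overlap (Myl7, Nppa and Sln) and 0 lower. Of all tested probe sets, 9.51% and 10.1% were. At 10.5 months the groups overlapped on each of the 7 atrial markers. Summed signal of 10 fibroblast markers was 23494 to 25976 in mdx and 18194 to 21870 in control hearts at 8 weeks, and 24178 to 32711 in mdx and 21529 to 22315 in control hearts at 10.5 months. At 8 weeks the groups overlapped on each of the 10. Dcn, the brightest, was then at 7294 to 15049 in mdx and 7305 to 10192 in control hearts. At 10.5 months 4 were higher in mdx hearts without overlap (Col3a1, Dpt, Lum and Postn) and 0 lower. Of all tested probe sets, 7.51% and 10.6% were.

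Tob2 was lower in mdx than in control hearts at both ages on each of its 4 probe sets, without overlap between the groups. Of all tested probe sets, 10.1% were lower without overlap at 8 weeks and 10.6% at 10.5 months. Probe sets of 1 gene are not independent, and the 10.5-month values picked Tob2. At 10.5 months its brightest probe set, 1448667_x_at, had signals of 641, 477 and 525 in mdx hearts, against 1726, 1464 and 1527 in control hearts. The 3 mdx values lay far below the 3 control values, with means of 548 ± 84.1 and 1573 ± 137 (SD, n = 3 each). On the log2 scale the difference was -1.47 ± 0.19, which makes the signal 2.78-fold lower in mdx hearts.

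The other probe sets of Tob2 were also lower in 10.5-month mdx hearts, by different amounts. Probe set 1448666_s_at had 327, 284 and 196 in mdx hearts, against 654, 578 and 640 in control hearts, a difference of -1.15 ± 0.25. Probe set 1417309_at had 200, 189 and 132 in mdx hearts, against 298, 284 and 345 in control hearts (-0.74 ± 0.19). Probe set 1417310_at had 338, 354 and 338 in mdx hearts, against 441, 405 and 419 in control hearts (-0.27 ± 0.14). The groups did not overlap on any of the 4, but the size ran from 1.21-fold to 2.78-fold lower, so the value that drew attention to Tob2 is the largest that its probe sets give. By Affymetrix naming, probe sets ending in _s_at or _x_at may hold probes that match further transcripts, and those of 1417309_at and 1417310_at should be unique; cross-matching was not tested here.

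**Figure D1:**
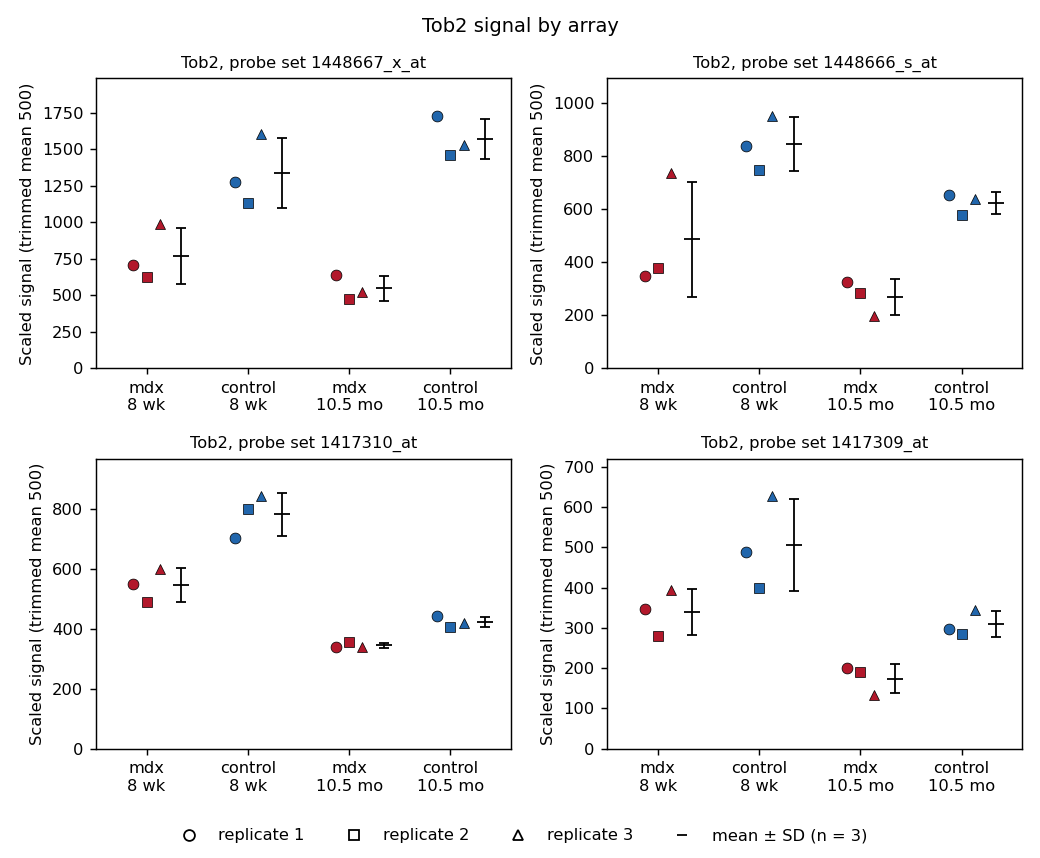
Scaled signal of the 4 probe sets of Tob2 on each of the 12 arrays, in mdx (red) and control (blue) hearts at 8 weeks and 10.5 months, with the mean ± SD of each group (n = 3). The mdx arrays lie below the control arrays at both ages on each probe set, and on 1417310_at the gap at 10.5 months is narrow.

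At 8 weeks, in hearts that were not used to pick the gene, Tob2 was again lower on all 4 probe sets. The brightest, 1448667_x_at, had 706, 622 and 987 in mdx hearts, against 1279, 1129 and 1604 in control hearts. The groups did not overlap, mdx replicate 3 lay nearest to the controls, and the difference was -0.78 ± 0.19 (1.72-fold lower), just short of the threshold by limma (adjusted p = 0.0525). In 20 alternatives it ran from -0.96 to -0.64 with adjusted p from 0.0287 to 0.198, and it passed in 2 of them, without mdx replicate 3 (-0.96) and after quantile normalization (-0.71). It was -0.64 without control replicate 3 (limma, adjusted p = 0.192) and likewise -0.64 without mdx replicate 2 (adjusted p = 0.124).

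Probe set 1448666_s_at showed the same array apart, with 348 and 377 in mdx replicates 1 and 2, 738 in mdx replicate 3, and 840, 747 and 951 in control hearts. Its difference was -0.83 ± 0.25 (adjusted p = 0.106). With 1 array left out it ran from -1.15 without mdx replicate 3 (adjusted p = 0.0167) to -0.64 without mdx replicate 1 (adjusted p = 0.252), and the first was the 1 of 20 alternatives in which it passed. Probe set 1417310_at had 549, 488 and 598 in mdx hearts, against 702, 800 and 840 in control hearts (-0.49 ± 0.14, adjusted p = 0.0763). Probe set 1417309_at had 346, 279 and 393 in mdx hearts, against 490, 399 and 626 in control hearts (-0.52 ± 0.19, adjusted p = 0.184). None of the 4 passed with all arrays in the fit, and all 4 had 95% intervals below 0, from -1.36 to -0.10 in all. In tissue RNA, fewer cells of a type and less RNA per cell cannot be told apart.

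In the order of its levels on 1448667_x_at, Tob2 averaged 548 ± 84.1 in mdx hearts at 10.5 months, 772 ± 192 in mdx hearts at 8 weeks, 1337 ± 242 in control hearts at 8 weeks and 1573 ± 137 in control hearts at 10.5 months (SD, n = 3 each). The 2 mdx groups overlapped with each other, as did the 2 control groups, and no mdx array reached a control array. The difference between the mdx effects at the 2 ages was -0.69 ± 0.27 on this probe set. It was -0.32 ± 0.35 on 1448666_s_at, -0.22 ± 0.28 on 1417309_at and 0.22 ± 0.19 on 1417310_at, so that the probe sets did not share a direction.

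With age the probe sets of Tob2 parted. In control hearts 1417310_at had 441, 405 and 419 at 10.5 months, against 702, 800 and 840 at 8 weeks, a difference of -0.84 ± 0.14 (1.79-fold lower). On 1417309_at and 1448666_s_at the difference was -0.64 ± 0.19 and -0.42 ± 0.25, and on all 3 the older control hearts lay below the younger ones. On the brightest probe set, 1448667_x_at, the older control hearts were at 0.24 ± 0.19 and overlapped with the younger. In mdx hearts all 4 probe sets were lower at 10.5 months than at 8 weeks, by -0.45 ± 0.19 on 1448667_x_at, -0.74 ± 0.25 on 1448666_s_at, -0.62 ± 0.14 on 1417310_at and -0.86 ± 0.19 on 1417309_at.

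Set against 1417310_at on the same array, 1448667_x_at stood apart in 1 group. Its log2 excess over 1417310_at was 0.40 to 0.86 in mdx and 1.78 to 1.90 in control hearts at 10.5 months, and 0.33 to 0.69 in mdx and 0.48 to 0.91 in control hearts at 8 weeks. The excess over 1417309_at showed the same high group, with 1.20 to 1.76 in mdx and 2.05 to 2.41 in control hearts at 10.5 months, against at most 1.43 at 8 weeks. Over the 12 arrays, Pearson's r of log2 signal ran from 0.48 to 0.91 among the 6 pairs of Tob2 probe sets, the lowest being that of 1448667_x_at with 1417310_at. These correlations include the differences between groups and are descriptive.

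**Figure D2:**
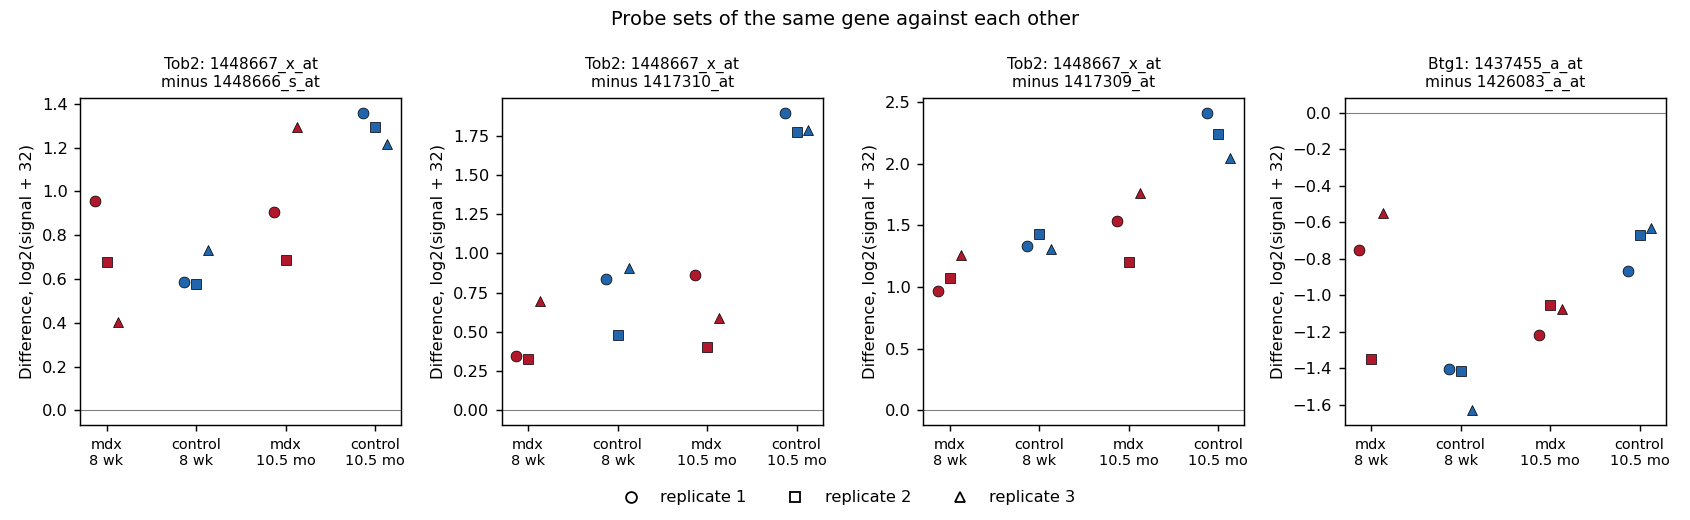
Difference in log2(signal + 32) between probe sets of the same gene on each array, for 3 pairs of Tob2 and the pair of Btg1, in mdx (red) and control (blue) hearts. A gene whose probe sets moved in parallel would lie on 1 level; the 10.5-month control arrays stand high in the panels of 1417310_at and 1417309_at, and the 8-week control arrays stand low for Btg1.

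Several traits of the arrays differed between or within the groups compared for Tob2. At 10.5 months the atrial genes Myl7 and Sln were high on 2 control arrays, with Myl7 at 270, 151 and 284 in mdx hearts and at 3554, 2216 and 131 in control hearts. Tob2 on 1448667_x_at had 1527 on control replicate 3, the array with the low Myl7, between the 1464 and 1726 of the other control arrays, and with an atrial score as a covariate its difference was -1.42. With the wide signal range as a block it was -1.37 at 10.5 months and -0.67 at 8 weeks. The actin control ratio that bears on RNA quality was 1.44 on mdx replicate 3 at 10.5 months and at most 1.289 elsewhere, and without that array the difference at 10.5 months was -1.45. Of 11 endothelial markers, 5 were lower in mdx than in control hearts without overlap at 10.5 months (Eng, Flt1, Tek, Tie1 and Vwf) and 2 at 8 weeks (Esam and Tie1). Of all tested probe sets, 10.6% were lower at 10.5 months and 10.1% at 8 weeks. No endothelial marker was higher without overlap at either age, where 7.51% of all tested were at 10.5 months and 9.51% at 8 weeks. Tie1, an endothelial receptor, was at 308 to 348 in mdx and 394 to 508 in control hearts at 10.5 months, and at 342 to 403 in mdx and 503 to 537 in control hearts at 8 weeks. Summed endothelial signal was 9091 to 11434 in mdx and 11081 to 12165 in control hearts at 10.5 months, and 10570 to 12928 in mdx and 12246 to 14580 in control hearts at 8 weeks. The part of the endothelial and fibroblast signals in the differences of Tob2 was not tested. That of atrial tissue, signal range and RNA quality was not tested beyond the covariate, block and left-out array above.

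Tob1, the nearest relative of Tob2, showed no called difference in any tested comparison. Its single probe set, 1423176_at, had 761, 805 and 1291 in mdx hearts and 1231, 875 and 1067 in control hearts at 8 weeks. The values overlapped widely, with mdx replicate 3 the highest of all 6 (-0.17 ± 0.20, 95% interval -0.61 to 0.27, limma adjusted p = 0.705). At 10.5 months it had 1051, 1185 and 1346 in mdx hearts, against 1476, 1251 and 1270 in control hearts, a difference of -0.16 ± 0.20. Older hearts had somewhat higher values than younger ones, by 0.35 ± 0.20 in mdx (adjusted p = 0.265) and 0.33 ± 0.20 in control hearts (adjusted p = 0.550), and neither passed. The intervals leave room for a difference of up to 0.61 on the log2 scale between mdx and control.

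Btg2 did not pass in any tested comparison on either of its probe sets. At 8 weeks 1416250_at had 630, 607 and 715 in mdx hearts, against 785, 754 and 765 in control hearts. The groups did not overlap, but the difference was small (-0.23 ± 0.14, 95% interval -0.54 to 0.07, limma adjusted p = 0.418). On 1448272_at the mdx hearts had 738, 648 and 833 and the control hearts 659, 647 and 718, a difference in the other direction (0.12 ± 0.19, adjusted p = 0.782).

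At 10.5 months Btg2 had 612, 684 and 762 in mdx hearts on 1416250_at, against 754, 711 and 863 in control hearts (-0.17 ± 0.14). On 1448272_at it had 390, 639 and 576 in mdx hearts, against 576, 722 and 804 in control hearts (-0.39 ± 0.19). On that probe set the older mdx hearts also lay below the younger mdx hearts, by -0.47 ± 0.19 (limma, adjusted p = 0.120), while the older control hearts were at 0.04 ± 0.19 against the younger (adjusted p = 0.953). The other probe set was at 0.07 ± 0.14 with age in mdx and at 0.01 ± 0.14 in control hearts, so the lower values of older mdx hearts were seen on 1 probe set alone.

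Btg1 gave different answers on its 2 probe sets. On 1437455_a_at it rose in mdx hearts at 8 weeks, with 776, 606 and 849 in mdx hearts against 505, 381 and 392 in control hearts. All mdx values lay above all control values, and the 1.69-fold difference (0.76 ± 0.16) was called by limma (adjusted p = 0.0359). The difference stayed between 0.66 and 0.89 in all 20 alternatives, but in 11 of them it no longer passed the threshold. The call was lost without control replicate 2 or 3 or mdx replicate 1 or 3 at 8 weeks (adjusted p = 0.0800, 0.121, 0.0726 and 0.0771). It was lost without control replicates 1, 2 or 3 or mdx replicate 2 at 10.5 months (0.0547, 0.0581, 0.0535 and 0.0560), with the replicate number as a block (0.0595), with the atrial score as a covariate (0.0784) and when only 8-week arrays were fitted (0.176).

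At 10.5 months the same probe set ran the other way, with 628, 662 and 739 in mdx hearts against 759, 855 and 847 in control hearts (-0.27 ± 0.16). The groups again did not overlap. The difference between the mdx effects at the 2 ages was -1.03 ± 0.23, which did not pass (limma, adjusted p = 0.110). The younger control hearts were the low group: older control hearts were at 0.90 ± 0.16 above them (1.87-fold, adjusted p = 0.0527), and older mdx hearts at -0.12 ± 0.16 against younger mdx hearts (adjusted p = 0.656).

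The brighter probe set of Btg1, 1426083_a_at, showed none of this. It had 1330, 1593 and 1257 in mdx hearts and 1390, 1067 and 1282 in control hearts at 8 weeks (0.16 ± 0.15, 95% interval -0.16 to 0.48, limma adjusted p = 0.618). At 10.5 months it had 1505, 1408 and 1594 in mdx hearts and 1409, 1380 and 1330 in control hearts (0.13 ± 0.15). The interval at 8 weeks lies below the 0.76 of the other probe set, but overlaps with the interval of that probe set (0.41 to 1.11). The difference between the 2 probe sets was not tested. Over the 12 arrays the 2 probe sets of Btg1 correlated with r = 0.40, and the annotation table pairs no accession with 1437455_a_at. Of 12 lymphocyte markers with a probe set, 8 had a mean below 100 in 8-week mdx hearts and 6 in 8-week control hearts, and their summed signal was 1283 to 1920 in mdx and 1189 to 1557 in control hearts. At that age 4 of the 12 were higher in mdx hearts without overlap (Cd3e, Cd4, Ighm and Ms4a1) and 1 was lower (Cd79b). Of all tested probe sets, 9.51% and 10.1% were. Cd3e, Cd4 and Cd79b had means below 100 in both 8-week groups. Of the 12 markers, 5 reached the mean needed for a test, so the count includes probe sets outside those shares. The part of lymphocytes and of the atrial and fibroblast signals in the rise of Btg1 was not tested beyond the covariate above.

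**Figure D3:**
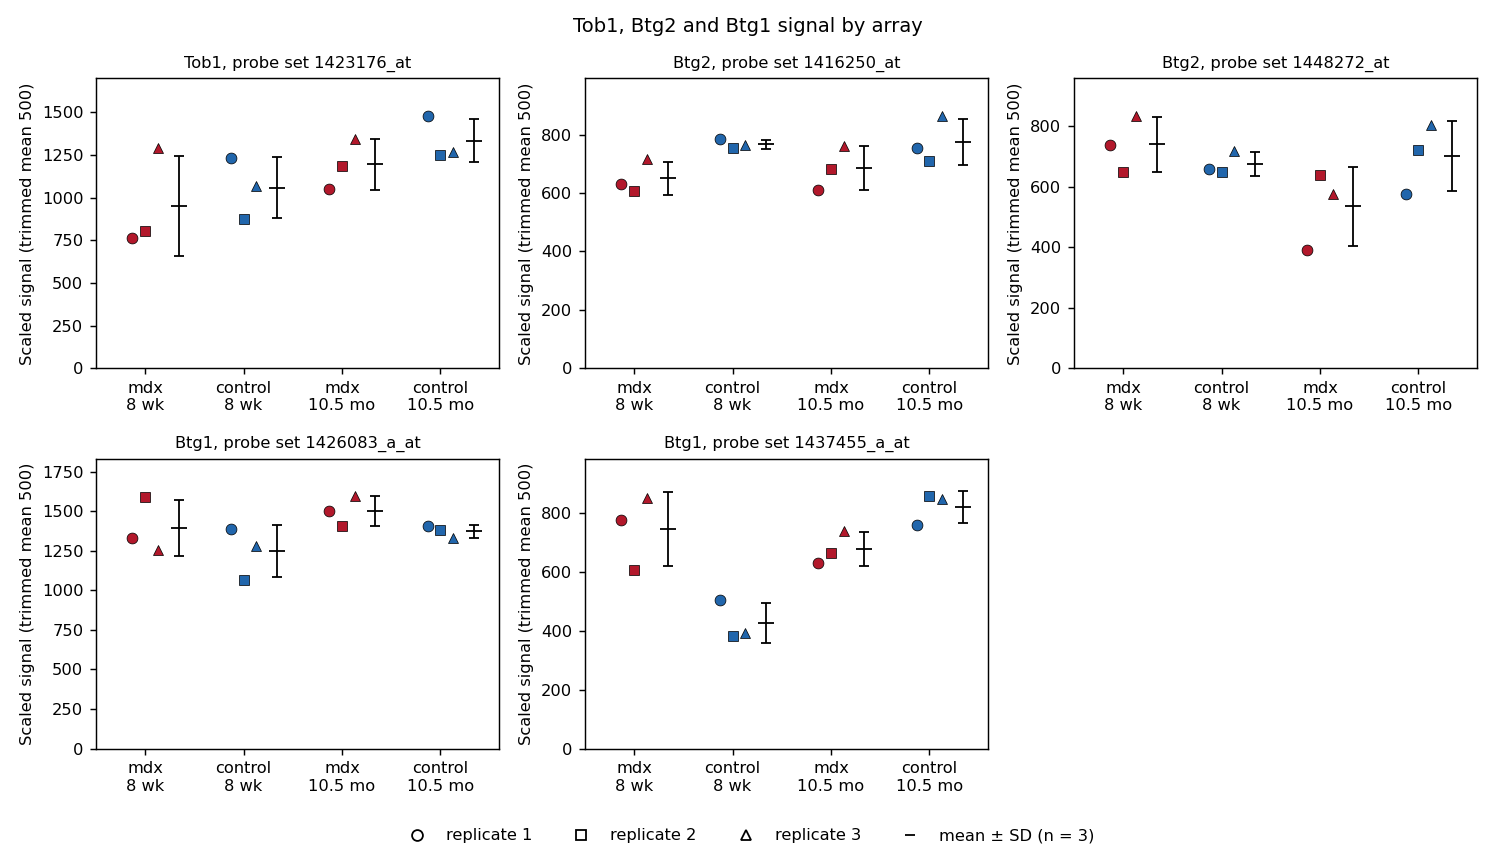
Scaled signal of Tob1, Btg2 and Btg1 on each array, in mdx (red) and control (blue) hearts, with the mean ± SD of each group (n = 3). On Btg1 1437455_a_at the 8-week control hearts lie lowest, on Btg2 1448272_at the 10.5-month mdx hearts lie below both 8-week groups, and on the other 3 probe sets the groups lie closer together.

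Counted over the 9 probe sets, 1 was called between mdx and control hearts at 8 weeks (Btg1), where 2.3% of all tested probe sets were called. With no overlap, 5 were lower and 1 was higher in mdx hearts at 8 weeks, against 10.1% and 9.51% of all tested probe sets, and 4 of the 5 belong to Tob2 alone. At 10.5 months 5 were lower without overlap and 0 higher, where 10.6% and 7.51% of all tested were, and 1 was called, where 0.0469% were. All of these 5 but Btg1 on 1437455_a_at are of Tob2, and the call is the value for which the family was taken up. Nothing is read from this count or from the call. In the comparisons between ages no call is counted for Tob2. Of the other 5 probe sets, limma called 0 between ages in mdx hearts and 0 in control hearts, where 11.4% and 0.147% of all tested were, and 1 in each had an unadjusted p below 0.05, where 30.2% and 12.2% of all tested did. In mdx hearts 0 of the 9 were higher and 4 lower at 10.5 months without overlap (14.7% and 15.5% of all tested). In control hearts 2 were higher and 3 lower (12.2% and 10.5%). All lower ones but Btg2 1448272_at in mdx hearts are of Tob2, and nothing is read from those. For the difference of the mdx effects between ages limma called 0 of the same 5, where 0.154% of all tested were called, and 1 (Btg1 on 1437455_a_at) had an unadjusted p below 0.05, where 12.1% of all tested did. Probe sets of 1 gene share their target and are not independent.

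**Figure D4:**
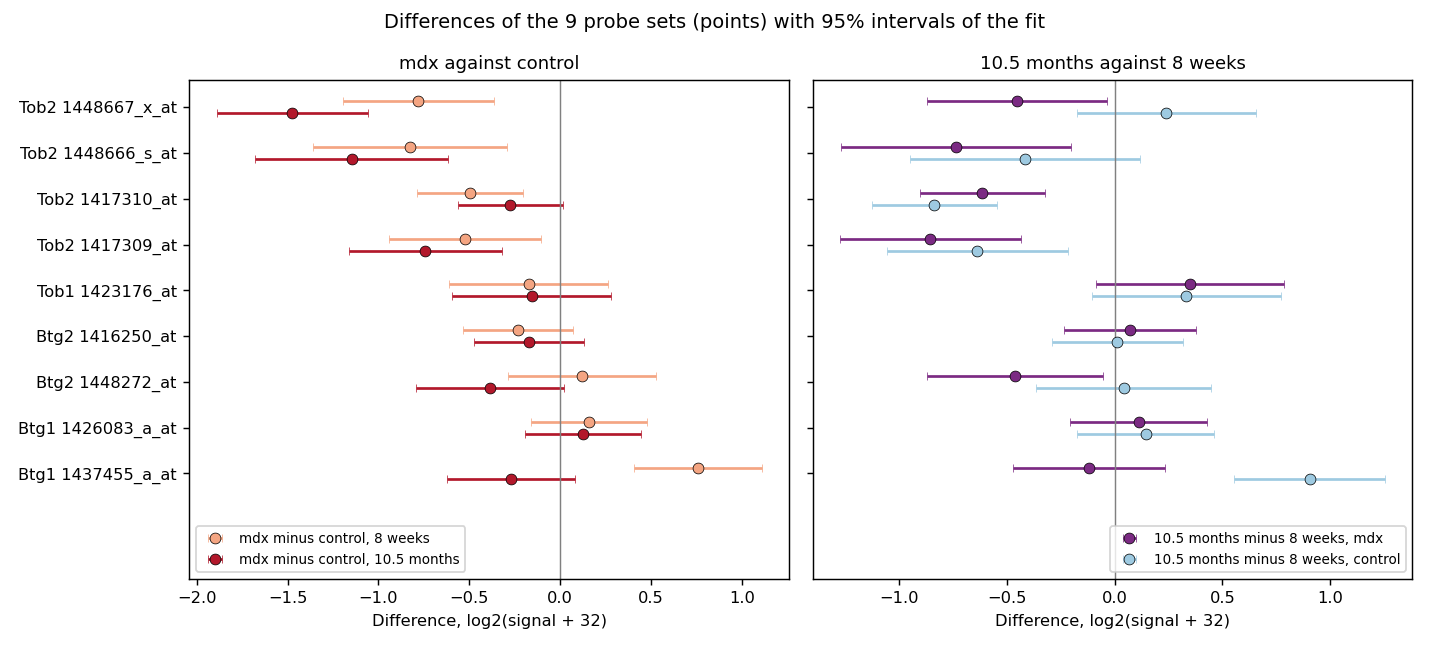
Differences in log2(signal + 32) of the 9 probe sets, as points with 95% intervals of the fit, for mdx against control at each age (left) and for 10.5 months against 8 weeks in mdx and control hearts (right). The points of the 4 probe sets of Tob2 lie left of 0 in both comparisons with control, though the interval of 1417310_at at 10.5 months holds 0. Btg1 on 1437455_a_at lies right of 0 at 8 weeks and left of it at 10.5 months, where its interval holds 0. Most of the other intervals hold 0.

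The genes whose log2 signal was most like that of Tob2 on 1448667_x_at over the 12 arrays were Dmd on its probe set 1448665_at (Pearson's r = 0.928), the RNA-binding translation regulator gene Cpeb3 (0.901), the gene of the mitotic inhibitor kinase Wee1 (0.888), the signalling adaptor gene Gab1 (0.886) and the clock output factor gene Dbp (0.884). All 5 had lower signals in mdx hearts at both ages, as Tob2 had, and these group differences enter r. In mdx against control hearts at 10.5 months they were at -1.88 for Dmd, -0.71 for Cpeb3, -1.15 for Wee1, -0.54 for Gab1 and -2.0 for Dbp. At 8 weeks they were at -1.20, -0.32, -0.53, -0.33 and -0.78 in the same order.

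The other members were each closest to different genes. Tob1 was most like 2510009E07Rik (r = 0.973), the histone chaperone gene Asf1a (0.949) and the nucleosome-binding protein gene Hmgn1 (0.945). Btg2 was most like the metalloproteinase inhibitor gene Timp4 (0.901), the endocytic recycling gene Ehd1 (0.885) and Niban1 (0.879). Btg1 on its brighter probe set was most like Bet1l (0.919), Fbxo6 (0.859) and Rab28 (0.837). No gene appeared for more than 1 member, but only 3 or 5 of 8852 tested genes were listed for each, so nothing is read from this.

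Direct partners of these proteins gave no call between mdx and control hearts. Cnot7, a nuclease that binds these proteins directly, had 969 ± 329 in mdx and 1000 ± 148 in control hearts at 8 weeks, and 1155 ± 97.4 in mdx and 1411 ± 200 in control hearts at 10.5 months (SD, n = 3 each). Neither difference passed (-0.08 ± 0.21 and -0.28 ± 0.21, limma adjusted p = 0.881 and 0.811). Cnot8, its close homologue, was at -0.28 ± 0.16 and -0.06 ± 0.16 (adjusted p = 0.394 and 0.957), and the poly(A)-binding protein gene Pabpc1 at -0.42 ± 0.20 and -0.15 ± 0.20 (adjusted p = 0.290 and 0.892).

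Of 18 tested genes of the CCR4-NOT complex and other deadenylation, limma called 0 between mdx and control hearts at 8 weeks and 0 at 10.5 months, with medians of -0.05 and -0.14 against -0.01 and -0.02 over 8852 genes. The nearest were Cnot3, a subunit of the complex (-0.47 ± 0.21, adjusted p = 0.266), at 8 weeks and Pan2, the nuclease of another deadenylase (-0.35 ± 0.16, adjusted p = 0.674), at 10.5 months. Between ages 0 were called in control hearts, with Zfp36l1, which recruits deadenylases to messenger RNAs, nearest (0.78 ± 0.19, adjusted p = 0.150). In mdx hearts Pan2 fell with age, to 121 ± 26.6 at 10.5 months against 209 ± 25.8 at 8 weeks (-0.67 ± 0.16, adjusted p = 0.0219), the 1 of 18 called, where 5.59% of all genes were called lower.

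Of 8 tested genes for other binding partners, limma called 0 between mdx and control hearts at either age. Prmt5 was nearest at 8 weeks (-0.55 ± 0.18, adjusted p = 0.136) and Smad4, the shared mediator of TGF-beta and BMP signals, at 10.5 months (-0.32 ± 0.17, adjusted p = 0.701). With age in mdx hearts 2 of the 8 rose, both arginine methyltransferases, where 5.68% of all genes were called higher. Prmt1 reached 1108 ± 189 at 10.5 months, against 683 ± 188 at 8 weeks (0.70 ± 0.19, adjusted p = 0.0362), and Prmt5 reached 1038 ± 110, against 493 ± 90.1 (1.03 ± 0.18, adjusted p = 0.00564). In control hearts Prmt1 was at -0.06 ± 0.19 and Prmt5 at 0.43 ± 0.18 (adjusted p = 0.930 and 0.362), and for Prmt1 the change with age was not shown to differ between mdx and control hearts (0.76 ± 0.27, adjusted p = 0.289). Among 8-week mdx arrays 2 of 3 had the wide signal range, against 1 of 3 at 10.5 months.

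Other genes that act on the cell cycle gave few calls. Of 20 tested cell cycle inhibitors and p53 targets, 0 were called by limma between mdx and control hearts at either age, with medians of 0.01 at 8 weeks and 0.08 at 10.5 months. The p21 gene Cdkn1a came nearest at 10.5 months, with 564 ± 101 in mdx and 356 ± 100 in control hearts (0.63 ± 0.24, adjusted p = 0.645), and Cdkn1c nearest at 8 weeks (-1.02 ± 0.33, adjusted p = 0.135). With age in mdx hearts, where 5.68% of all genes were called higher and 5.59% lower, Plk2 (1.01 ± 0.15, adjusted p = 0.00263) and Gas1 (0.68 ± 0.15, adjusted p = 0.0135) rose and Sesn1 fell (-0.47 ± 0.13, adjusted p = 0.0386). Of 21 cyclin and replication genes, Mcm3, part of the replicative helicase, was the 1 called at 8 weeks, where 0.96% of all genes were called lower (-1.17 ± 0.26, adjusted p = 0.0392), at a signal of 41.9 ± 29.3 in mdx and 128 ± 23.2 in control hearts, and 0 were called at 10.5 months, with Cdk2 nearest (-0.51 ± 0.17, adjusted p = 0.609). With age in mdx hearts 3 of the 21 rose, against the same 5.68% of all genes, namely Mcm3, Cdk4 and Pcna (1.60 ± 0.26, 0.69 ± 0.16 and 0.65 ± 0.16, adjusted p = 0.00388, 0.0189 and 0.0208).

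Of 17 immediate early genes, the class to which Btg2 also belongs, 0 were called by limma between mdx and control hearts at either age. Their medians were -0.03 at 8 weeks and -0.03 at 10.5 months. The nearest were Ier2 at 8 weeks (-0.53 ± 0.16, adjusted p = 0.109) and Egr1 at 10.5 months (0.46 ± 0.17, adjusted p = 0.631), and Ier2, the 1 of 17 called, rose with age in mdx hearts, where 5.68% of all genes did (0.61 ± 0.16, adjusted p = 0.0297). Of 13 clock genes, Dbp and its relative Tef were called lower at 10.5 months, where 0.05% of all genes were, and 0 were called at 8 weeks, where Cry2 came nearest (1.05 ± 0.36, adjusted p = 0.157). With age in mdx hearts Tef, Cry2 and Nr1d1 were among 4 that fell and Arntl was the 1 that rose (5.59% and 5.68% of all genes). The list medians for mdx against control were -0.17 at 8 weeks and -0.88 at 10.5 months, against -0.01 and -0.02 over all genes. Between ages in control hearts, and for the difference of the mdx effects, limma called 0 in each of the 6 lists.

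At an unadjusted p below 0.05 the counts were as follows. At 8 weeks there were 1 of 18 for deadenylation, 2 of 8 for partners, 3 of 20 for inhibitors, 3 of 21 for cyclins and replication, 3 of 17 for immediate early genes and 6 of 13 for the clock, with 1566 of all 8852 genes. At 10.5 months there were 0, 0, 2, 2, 3 and 8 in the same order, with 650 of all genes. Between ages in control hearts there were 3, 1, 2, 1, 5 and 2, with 1041 of all genes, and for the difference of the mdx effects 2, 2, 2, 3, 1 and 7, with 1062 of all genes. Between ages in mdx hearts there were 5, 2, 7, 6, 2 and 9, with 2668 of all genes. The time of day at which hearts were collected is not given in the labels.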

How the data were processed

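Total RNA of heart muscle was measured on 12 Affymetrix MOE430A arrays. The deposited values are intensity on a linear scale, 1 per probe set and array; the deposited columns share a trimmed mean (2% off each end) of 1500.6 to 1500.9, so the authors had scaled the arrays. Per the labels the Affymetrix standard procedure was followed, with software not given in the sources used here. Gene names came from GEO's platform table and were updated through RefSeq gene IDs (20380 with 1 gene, 691 with several, 1555 with none; 20351 matched by gene ID).

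Signals were brought to a common trimmed mean of 500 and analysed as log2(signal + 32). Without the 64 control probe sets, 14932 reached the mean of 100 needed for a test. In R 4.3.3, limma 3.58.1 (lmFit, eBayes) fitted 1 mean per group to all 12 arrays, with 8 residual and 5.2 prior degrees of freedom. Alternatives were quantile normalization, an offset of 16, a floor of 64, no filter, fewer groups, each array left out, replicate number or signal range as a block, and an atrial covariate. The fit was tested on simulated data. The number of arrays limits the precision.

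The members, lists and tests were chosen with earlier results of these data known. Genes named are all members with every probe set, Dmd, the 5 genes most like Tob2 and 3 most like each other member by Pearson's r, and from each list up to 4 called members or else the 1 with the smallest p. The brightest probe set stood for a gene. Cnot7, Cnot8 and Pabpc1 were given for their direct binding to these proteins, and Prmt1 in control hearts beside its change in mdx hearts. Myl7, Sln, Nppa, Myl2, Dcn and the fibroblast, endothelial and lymphocyte markers that did not overlap were named after their values were seen.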

Additional observations from a re-analysis of the deposited data

Results flagged for a closer look

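Btg1 on probe set 1437455_a_at had opposite differences at the 2 ages, higher in all mdx than in all control hearts at 8 weeks (0.76 ± 0.16 on the log2 scale) and lower in all mdx than in all control hearts at 10.5 months (-0.27 ± 0.16). The difference of the 2 effects was -1.03 ± 0.23, which did not pass (limma, adjusted p = 0.110), and between 0.0624 and 0.330 in the alternatives run. The other probe set of Btg1 had 0.16 ± 0.15 and 0.13 ± 0.15 at the 2 ages.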

How the results depend on the processing

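Tob2 on its brightest probe set stayed between -1.59 and -1.37 at 10.5 months under the alternatives run on that probe set (-1.59 to -1.39 with 1 array left out), but was -1.15, -0.27 and -0.74 on 1448666_s_at, 1417310_at and 1417309_at. Of the 9 probe sets, Tob2 included, so that nothing is read from the counts with 10.5-month arrays, the number called at 8 weeks was 1, with 2 after quantile normalization and 0 with only the compared groups, with the replicate block or with the atrial covariate, and 0 to 2 with 1 array left out. At 10.5 months it was 0 with the atrial covariate and 0 to 2 with 1 array left out. For age in control hearts it was 2 with the floor, 0 with only the compared groups, the replicate block or the atrial covariate, and 0 to 2 with 1 array left out; for age in mdx hearts it was 0 with only the compared groups and 1 to 3 with 1 array left out. Arrays of the same replicate number did not deviate together (r of -0.129 to 0.135), so the numbers share no known source; with the replicate block the count over all probe sets at 8 weeks was 176. Only the fit of the compared groups alone was not run for the difference between ages, which needs all arrays.

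Directions that changed belonged to values near 0. Btg2 on 1416250_at with age was -0.028 in control hearts after quantile normalization and -0.065 to 0.069 with 1 array left out, and in mdx hearts -0.009 with the atrial covariate and -0.005 to 0.146 with 1 array left out. Btg2 on 1448272_at with age in control hearts was -0.06 to 0.17 with 1 array left out. For the difference of the mdx effects, with 1 array left out, Btg1 on 1426083_a_at ran from -0.114 to 0.072, Btg2 on 1416250_at from -0.016 to 0.135 and Tob1 from -0.119 to 0.249; the first 2 were 0.067 and -0.089 with the atrial covariate, and Tob1 was -0.049 after quantile normalization. The causes were not tested. Over all probe sets, the counts of 343, 7, 22, 1706 and 23 called (8 weeks, 10.5 months, age in control, age in mdx, difference) ran from 23 to 454, 1 to 12, 7 to 35, 565 to 1946 and 0 to 33 (limma; 1813 had an unadjusted p below 0.05 for the difference).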
